A study of Mus musculus with 12 samples.

Results

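The 10 genes described here encode the main transporters that move bile acids, drugs and sterols across the membranes of the hepatocyte: Slc10a1, Slco1a1, Slco1a4, Slco1b2, Abcb11, Abcb4, Abcc2, Abcc3, Abcg5 and Abcg8. They were chosen by name, for their role, from the 48526 genes of a table of liver RNA, 26304 of them with any count at all and 11968 passing the filter on low values. All 10 were among the 11968, and each had between 168 and 112907 counts in a liver. The livers came from C57BL/6J mice, an inbred laboratory strain, that were 8 to 10 weeks old when the diets began and were fed for 4 weeks. The 4 groups were females on chow, females on chow with simvastatin, males on chow and males on chow with simvastatin, with 3 livers in each group, 12 in all. Simvastatin inhibits HMG-CoA reductase, the enzyme at the control point of cholesterol synthesis. The labels give the dose as 0.1 g per kg of body weight, whereas the study's methods give the same figure per kg of food. The labels name one formulation for both diets, whereas the methods name a separate one for each, and every group shared the strain.

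Bile acids, statins and many other drugs enter hepatocytes from the blood through carriers in the sinusoidal membrane. The sodium-dependent carrier encoded by Slc10a1 takes up conjugated bile acids, and the organic anion carriers encoded by the Slco genes take up bile acids, hormone conjugates and drugs, statins among them. At the opposite, canalicular membrane, pumps of the ATP-binding cassette family secrete bile acids (Abcb11), conjugated bilirubin and drugs (Abcc2) and cholesterol and plant sterols (Abcg5 with Abcg8) into bile, while Abcb4 moves phosphatidylcholine to the outer leaflet, where bile acids take it up. Abcc3 sits on the sinusoidal side and returns conjugates to the blood.

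The libraries held between 46066381 and 60419223 counts, so that 3 counts correspond to 0.0497 to 0.0651 CPM (counts scaled to the library total) and every member was above that level in every liver. Between 5.71% and 12.7% of a library's counts were from Alb, the serum albumin gene, and all 5 hepatocyte marker genes were present. Whole liver was sequenced, so fewer hepatocytes and less RNA per hepatocyte cannot be told apart. Apart from sums of cell type markers, levels are given as CPM with TMM normalization, a scaling that corrects for the makeup of each library. Tests are two-sided edgeR quasi-likelihood tests with Benjamini-Hochberg adjustment over the 11968 genes, with a call at an adjusted p under 0.05.

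When levels were set per kb of exons, so that genes of different length can be compared, Slc10a1 and Slco1b2 led with means of 353 and 309 CPM per kb over the 12 livers. Abcb11 followed with 88.0, Abcc2 with 72.7 and Slco1a1 with 69.9 CPM per kb. Abcg5 stood at 39.6, Abcg8 at 35.9, Abcc3 at 34.4, Abcb4 at 20.9 and Slco1a4 at 19.7 CPM per kb. The uptake carriers thus held both the top of the order and its foot.

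**Figure D1:**
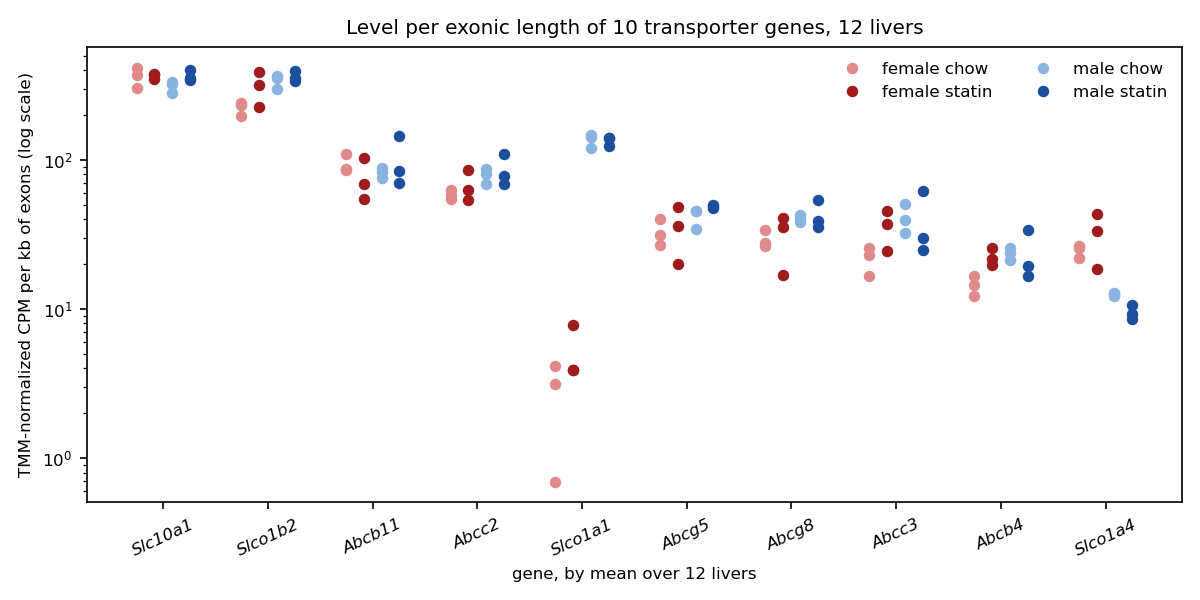
Level per exonic length of each transporter gene in the 12 livers, as TMM-normalized CPM per kb on a log axis, with genes ordered by their mean over all livers and one point per liver colored by group. Slc10a1 and Slco1b2 are highest, and the livers of Slco1a1 split into a male set near 136 CPM per kb and a female set between 0.694 and 7.85.

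The place of Slco1a1 in that order depended on sex. In males it came after Slco1b2 and Slc10a1 on both diets, at 136 CPM per kb (SD 14.1, n = 3) on chow and 135 (SD 9.39, n = 3) on statin, whereas in females it was the lowest of the 10 on both diets, at 2.67 (SD 1.79, n = 3) and 5.21 (SD 2.29, n = 3). In females on chow, Slc10a1, Slco1b2, Abcb11 and Abcc2 were each separated from the next gene in the order, with no overlap of livers. The 5 genes from Abcg5 down to Abcb4 in that group (Abcg5, Abcg8, Slco1a4, Abcc3 and Abcb4) each overlapped their neighbor. In males on chow Slco1b2 came before Slc10a1, at 339 and 314 CPM per kb, and these overlapped, as did Abcb11 with Abcc2 and Abcg5 with Abcc3 and then Abcg8. On statin Slc10a1 and Slco1b2 overlapped in both sexes.

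Slco1a1 and Slco1a4 were the members that edgeR called between the sexes on both diets, in opposite directions. They encode organic anion carriers of one subfamily and lie near each other on the minus strand of chromosome 6. In GRCm38, Slco1a1 spans chr6:141907282-141946962 and Slco1a4 spans chr6:141805440-141856199, with Slco1b2 on the plus strand at chr6:141629518-141686646. The 300 bases around the start site of each (250 before and 50 after, from RefSeq on GRCm38.p6, minus strand) are shown because these neighbors differed between the sexes in opposite directions. Capitals mark AGGTCA, the core letters that many nuclear receptors bind, on either strand. The windows are chr6:141946913-141947212 for Slco1a1 and chr6:141856171-141856470 for Slco1a4.
Slco1a1: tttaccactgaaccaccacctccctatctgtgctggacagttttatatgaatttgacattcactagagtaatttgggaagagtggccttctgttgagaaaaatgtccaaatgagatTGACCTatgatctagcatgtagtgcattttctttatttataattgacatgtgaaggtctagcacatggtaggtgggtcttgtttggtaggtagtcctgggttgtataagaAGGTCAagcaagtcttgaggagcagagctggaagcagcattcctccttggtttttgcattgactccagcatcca
Slco1a4: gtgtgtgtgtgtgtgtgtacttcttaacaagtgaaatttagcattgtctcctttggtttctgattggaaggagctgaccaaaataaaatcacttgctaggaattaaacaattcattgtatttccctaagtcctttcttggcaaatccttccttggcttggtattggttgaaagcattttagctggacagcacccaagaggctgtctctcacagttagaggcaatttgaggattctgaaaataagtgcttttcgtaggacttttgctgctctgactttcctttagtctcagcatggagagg
The Slco1a1 window holds AGGTCA at positions -134 and -24 from the start site, and the Slco1a4 window holds none. Over all 32851 mouse promoter windows of this length 16.3% held AGGTCA, and among the 9 members with a window 4 did, namely Slco1a1, Slco1b2, Abcb11 and Abcc2. TTCNNNGAA, the palindrome bound by STAT5, was in 8.30% of all windows and in those of Slc10a1 and Slco1b2. TATAAA was in 13.6% of windows and in 5 of the 9, with 1 match counted for both Abcg5 and Abcg8, in the stretch their windows share. Both strands were searched, and no match overlapped a match of another of these motifs. These are matches of letters and were not tested as sites.

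On chow, Slco1a1 stood at 16.6, 22.0 and 3.66 CPM in the females and at 773, 751 and 634 CPM in the males. The groups were far apart, and 1 female liver was well below the others of its group. The difference of females from males was -5.67 on the log2 scale (SE 0.56, 95% interval -6.90 to -4.44, adjusted p = 5.9e-05), a level 51.0-fold lower. On statin the females stood at 41.4, 20.5 and 20.5 CPM and the males at 744, 740.3 and 657 CPM. Again no female liver came near a male one, and the difference was -4.70 (SE 0.54, adjusted p = 0.00019), or 26.0-fold lower. Leaving out any 1 liver kept the difference between -6.15 and -5.23 on chow and between -5.13 and -4.53 on statin.

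Slco1a4 had the opposite pattern. On chow it stood at 165, 142 and 171 CPM in females and at 82.7, 78.6 and 81.2 CPM in males, so that every female liver was above every male one and the males lay within a narrow span. The difference was 0.98 on the log2 scale (SE 0.24, 95% interval 0.46 to 1.49, adjusted p = 0.022), 1.97-fold higher in females. This call was close to the threshold. It was lost when any male chow liver or female chow liver 1 or 3 was left out (adjusted p from 0.068 to 0.073), although the difference then stayed between 0.92 and 0.99. On statin the levels were 118, 216 and 281 CPM in females and 55.0, 59.6 and 68.5 CPM in males. The female livers were widely spread, yet the lowest was above the highest male, and the difference was 1.75 (SE 0.24, adjusted p = 0.00096), 3.36-fold higher in females.

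Of the transcript windows of 50 bases, 1.64% of those of Slco1a1 and 1.61% of those of Slco1a4 also occurred in another gene on the same strand, each in the other, in Slco1a5, Slco1a6 or in a related gene model. Sequence from those stretches alone does not tell these genes apart, and how such reads were counted is not given in the sources used here. Slco1a5 was listed at 0 in every liver, and Slco1a6 was below the filter.

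These were the only members called by edgeR in either comparison of the sexes. On chow 10.4% of the 11968 genes were called, 5.96% higher in females and 4.49% higher in males, against 1 member in each direction. On statin 6.28% were called, 4.38% higher in females and 1.9% higher in males, again against 1 member in each direction. With library size alone in place of TMM, the share of higher calls among all calls fell from 57.0% to 46.4% on chow and from 69.8% to 52.1% on statin. Both members kept their calls under that scaling, and Abcb4 was called on chow as well (-0.74, adjusted p = 0.0495 in edgeR). The median difference of the members was -0.45 on chow and -0.28 on statin on the log2 scale, beside -0.01 over all genes in each.

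Of the other 8 members, 6 had lower values in females on chow, and none of the 8 passed the test. Over all genes, 48.9% had a positive difference of females from males on chow. On chow 7 of the 10 members had all 3 female livers above or below all 3 male livers, where 37.7% of all genes did. For Slco1b2, the mouse counterpart of the human OATP1B statin carriers, the females on chow stood at 967, 1149.7 and 1186 CPM and the males at 1739, 1797 and 1477. The groups did not overlap, and the difference was -0.60 (SE 0.19, adjusted p = 0.062). Abcb4 stood at 157, 115 and 136 CPM in females and 199, 239 and 222 in males, again without overlap, with a difference of -0.70 (SE 0.23, adjusted p = 0.082). Abcc3 stood at 132, 95.2 and 147 CPM in females and 183, 287 and 225 in males, with a difference of -0.89 (SE 0.34, adjusted p = 0.12). Abcc2 and Abcg8 likewise lay wholly below in females, by -0.43 (SE 0.20, adjusted p = 0.21) and -0.46 (SE 0.27, adjusted p = 0.32). With DESeq2 in place of edgeR, Slco1b2, Abcb4 and Abcc3 were called as well, at adjusted p of 0.012, 0.031 and 0.048, beside 16.3% of all genes.

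On statin these 3 differences were smaller in size. For Slco1b2 the difference was -0.22 (SE 0.19, adjusted p = 0.60; -0.41 without female statin liver 3 and -0.05 without female statin liver 2), for Abcb4 -0.06 (SE 0.23, adjusted p = 0.94) and for Abcc3 -0.13 (SE 0.33, adjusted p = 0.90). Without male statin liver 1 the values of Abcb4 and Abcc3 were 0.31 and 0.38. Only Slco1a1 and Slco1a4 had no overlap between the sexes on statin, beside 19.6% of all genes. Whether the sex difference changed with the diet is the same question as whether the sexes responded differently to statin. In edgeR that difference, females minus males, was 0.38 for Slco1b2 (SE 0.26, adjusted p = 0.85). For Abcb4 it was 0.63 (SE 0.33, adjusted p = 0.72) and for Abcc3 0.76 (SE 0.47, adjusted p = 0.81). Leaving out 1 liver gave 0.20 to 0.56, 0.44 to 1.00 and 0.52 to 1.27 for these 3. The values for Slco1a1 and Slco1a4 are given with the statin results.

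Cell type markers also differed between the sexes. Sums of markers are given as CPM scaled to the library total alone, without TMM. Of the 5 hepatocyte markers, Apoa1 and Serpina1e were called lower in females on chow, at means of 5057 against 8879 CPM and 103 against 2415 CPM, and Serpina1e alone on statin, while none was called higher. Alb, Cps1 and Ttr had higher means in females on chow, without passing the test. The 5 summed to between 95067 and 123392 CPM in females and between 76572 and 120854 in males on chow, and to between 114516 and 144178 and between 81506 and 91173 on statin. Of the 6 Kupffer cell markers, 2 were called higher in females on chow and 4 on statin, and the 6 summed to between 348 and 668 CPM in the 6 female livers and between 225 and 362 in the 6 male livers. The 5 stellate cell markers summed to between 273 and 340.3 CPM in females on chow and between 174 and 202 in males on chow, and the 6 endothelial markers to between 311 and 333 and between 220.2 and 288. Of these markers 2 stellate and 1 endothelial were called higher in females on chow. On statin none was called and the sums overlapped between the sexes, at 197 to 290 CPM in females and 178 to 228 in males for the stellate markers and at 259 to 386 and 224 to 319 for the endothelial markers. The 6 cholangiocyte markers summed to between 17.5 and 49.3 CPM over all livers. Only 2 of the 6 passed the filter, with Krt7 and Krt19 among those below it. The part of these cells in the sex differences of the transporters was not tested.

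**Figure D2:**
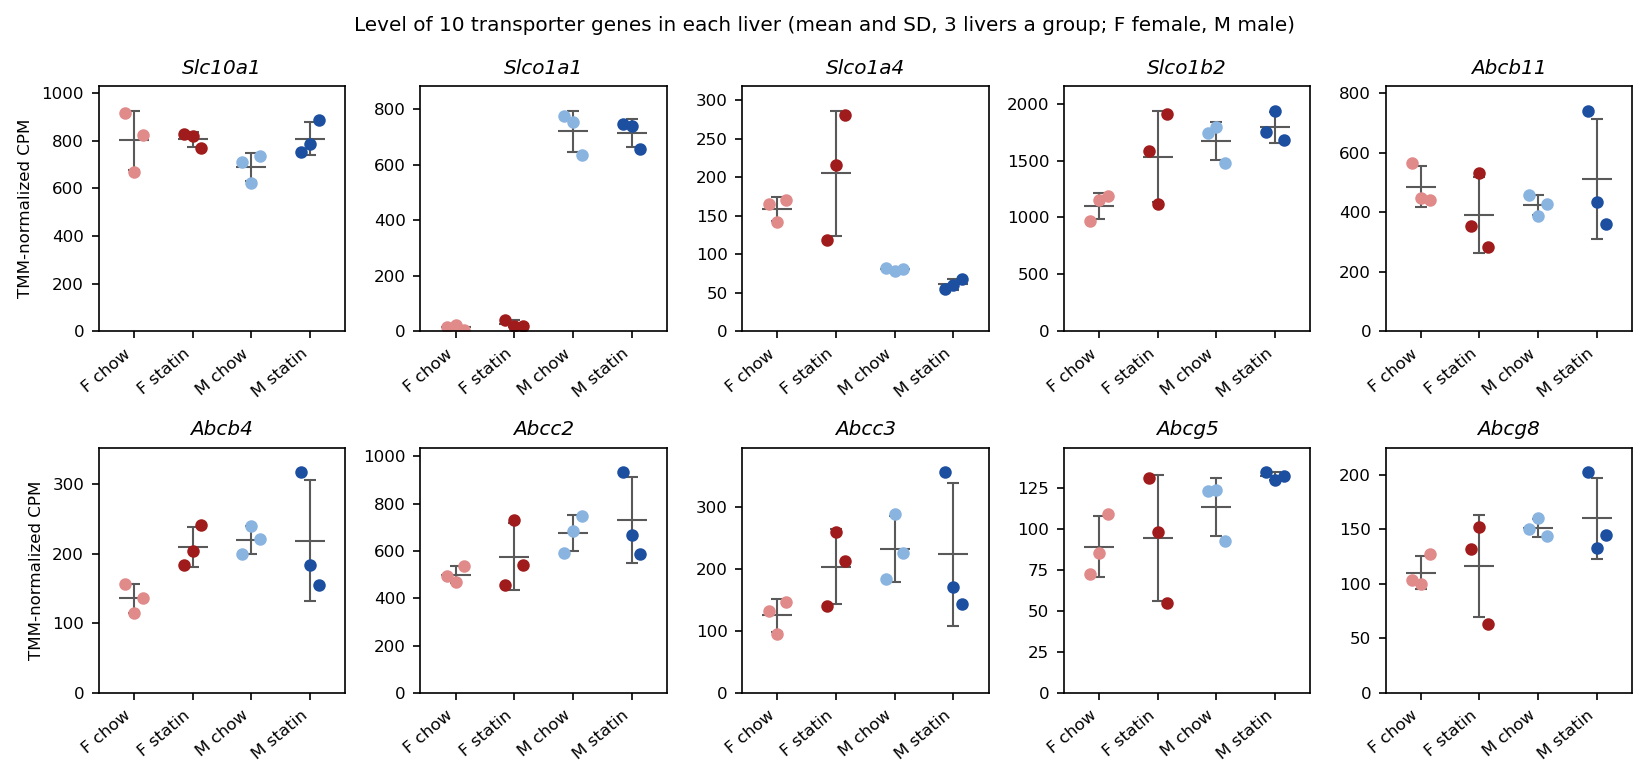
Level of each transporter gene in every liver, as TMM-normalized CPM on a linear axis from 0, by group (F female, M male), with the mean and SD of 3 livers. Slco1a1 is near 0 in both female groups and at 634 to 773 CPM in the male livers, Slco1a4 is higher in females, and male statin liver 1 is the top point of its group for Abcb11, Abcb4, Abcc2, Abcc3 and Abcg8.

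None of the 10 transporters was called for statin in either sex. In females edgeR called 12 of the 11968 genes, 0.1%, and no member, and 2 members had an unadjusted p under 0.05, beside 10.5% of all genes. In males it called no gene, 0%, and no member, with no member and 1.96% of all genes at an unadjusted p under 0.05. DESeq2 and limma called no member in either sex, beside 2.26% and 0.109% of all genes in females and 0.0334% and 0% in males. The median log2 fold change of the members was 0.28 in females and 0.09 in males, beside 0.01 and 0.00 over all genes. A positive value was found for 9 members in females and 6 in males, beside 52.8% and 51.0% of all genes. No cell type marker was called for statin in either sex. In females the median fold change was 0.37 for the 5 hepatocyte markers, which ran from -0.54 to 0.59. It was 0.11 for the 6 Kupffer cell markers, all 6 of them positive, and -0.02 for the 6 endothelial markers. For the 5 stellate cell markers it was -0.37, all 5 of them negative, and for the 2 cholangiocyte markers tested -0.37, both negative. In males these medians lay between -0.13 and 0.01, and the part of these cells in the statin values was not tested.

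Abcb4, the phospholipid floppase, was the member with the lowest p in females. It stood at 157, 115 and 136 CPM on chow and at 184, 204 and 241 CPM on statin. The statin livers were all above the chow livers, the only member in females of which this was true, where 12% of all genes had no overlap in either direction. The fold change was 0.62 on the log2 scale (SE 0.23, 95% interval 0.11 to 1.13, adjusted p = 0.36). In males it stood at 199, 239 and 222 CPM on chow and at 317, 184 and 155 on statin, with a fold change of -0.01 (SE 0.23, adjusted p = 1.00). The male statin livers spanned a range on both sides of the chow livers.

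The 50-base windows of Abcb4 occurred elsewhere on the same strand for 2.83%, in part in Abcb1a and Abcb1b, and the processed pseudogene Gm17936 lies within the gene on the same strand. Abcb1a and Abcb1b, which export drugs, had fold changes in females on statin of 0.50 (SE 0.37, adjusted p = 0.76) and -0.47 (SE 0.21, adjusted p = 0.46).

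Slco1b2 had the next lowest p in females. It stood at 967, 1149.7 and 1186 CPM in females on chow and at 1579, 1115 and 1911 CPM on statin. One statin liver lay within the chow range, and the fold change was 0.48 (SE 0.19, 95% interval 0.07 to 0.89, adjusted p = 0.38), or 0.31 without female statin liver 3. In males it stood at 1739, 1797 and 1477 CPM on chow and at 1753, 1939 and 1680.2 on statin, with much overlap and a fold change of 0.10 (SE 0.19, adjusted p = 1.00), or 0.02 without male chow liver 3. Slco1a1 had a fold change of 0.96 in females (SE 0.47, 95% interval -0.06 to 1.99, adjusted p = 0.52), and it was 0.52 without the chow liver at 3.66 CPM and 1.44 without female chow liver 2. In males it was -0.01 (SE 0.46, adjusted p = 1.00).

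Slco1a4 had fold changes of opposite sign in the sexes. Females had a fold change of 0.37 on statin (SE 0.24, adjusted p = 0.69) from levels that overlapped, and it ranged from 0.09 without female statin liver 3 to 0.65 without female statin liver 1. In males, where all statin livers were below all chow livers, it was -0.40 (SE 0.24, 95% interval -0.92 to 0.11, adjusted p = 1.00). The difference in response, females minus males, was 0.77 (SE 0.33, 95% interval 0.04 to 1.498, unadjusted p = 0.040 and adjusted p = 0.59 in edgeR), and without the same livers it was 0.49 and 1.04. It was the only member with an unadjusted p under 0.05 for that difference, beside 8.01% of all genes, and no gene was called by edgeR (0%), whereas DESeq2 called 130. The response of Slco1a1 differed by 0.97 (SE 0.66, adjusted p = 0.84), with an interval from -0.46 to 2.403 that covers both no difference and a large one, and it was 0.52 without female chow liver 3 and 1.45 without female chow liver 2.

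Slc10a1 had the smallest standard errors of the 10. It stood at 916, 669 and 823 CPM in females on chow and at 827, 821 and 769 on statin, a fold change of 0.01 with a 95% interval of -0.31 to 0.32 (SE 0.14, adjusted p = 1.00). In males it stood at 710.2, 624 and 736 CPM on chow and at 754, 786 and 889 on statin. The male statin livers were just above the chow livers, with a fold change of 0.23 (SE 0.14, 95% interval -0.08 to 0.54, adjusted p = 1.00). Slc10a1, Slco1a4 and Abcg5 were the 3 members without overlap in males, where 7.95% of all genes had none.

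Abcb11, Abcc2 and Abcc3 had livers that stood apart within the statin groups. Abcb11, the bile salt export pump, stood at 566, 449 and 442 CPM in females on chow, 355, 531 and 284 in females on statin, 456, 388 and 427 in males on chow and 741, 434 and 360.0 in males on statin. In both statin groups 1 liver was far above the others. The fold changes were -0.32 in females (SE 0.27, 95% interval -0.91 to 0.27) and 0.27 in males (SE 0.27, 95% interval -0.32 to 0.86), with adjusted p of 0.82 and 1.00. Without male statin liver 1 the male value was -0.09, and the female value was -0.60 without female statin liver 2 and -0.12 without female statin liver 3.

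Abcc2, which exports conjugated bilirubin, stood at 496, 469 and 537 CPM in females on chow and at 457, 731 and 541 on statin, with a fold change of 0.20 (SE 0.20, adjusted p = 0.86). In males it stood at 593, 686 and 747 CPM on chow and at 934, 668 and 589 on statin, with a fold change of 0.11 (SE 0.20, adjusted p = 1.00). Female statin liver 2 and male statin liver 1 were again highest, and without them the values were -0.01 and -0.10.

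Abcc3, the sinusoidal exporter, stood at 132, 95.2 and 147 CPM in females on chow and at 139, 259 and 212 on statin. The groups overlapped, and the fold change was 0.71 (SE 0.33, 95% interval -0.02 to 1.43, adjusted p = 0.50). In males it stood at 183, 287 and 225 CPM on chow and at 356, 170.4 and 143 on statin, the widest relative spread of any member in males (CV 52.0%), with a fold change of -0.06 (SE 0.33, adjusted p = 1.00).

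**Figure D3:**
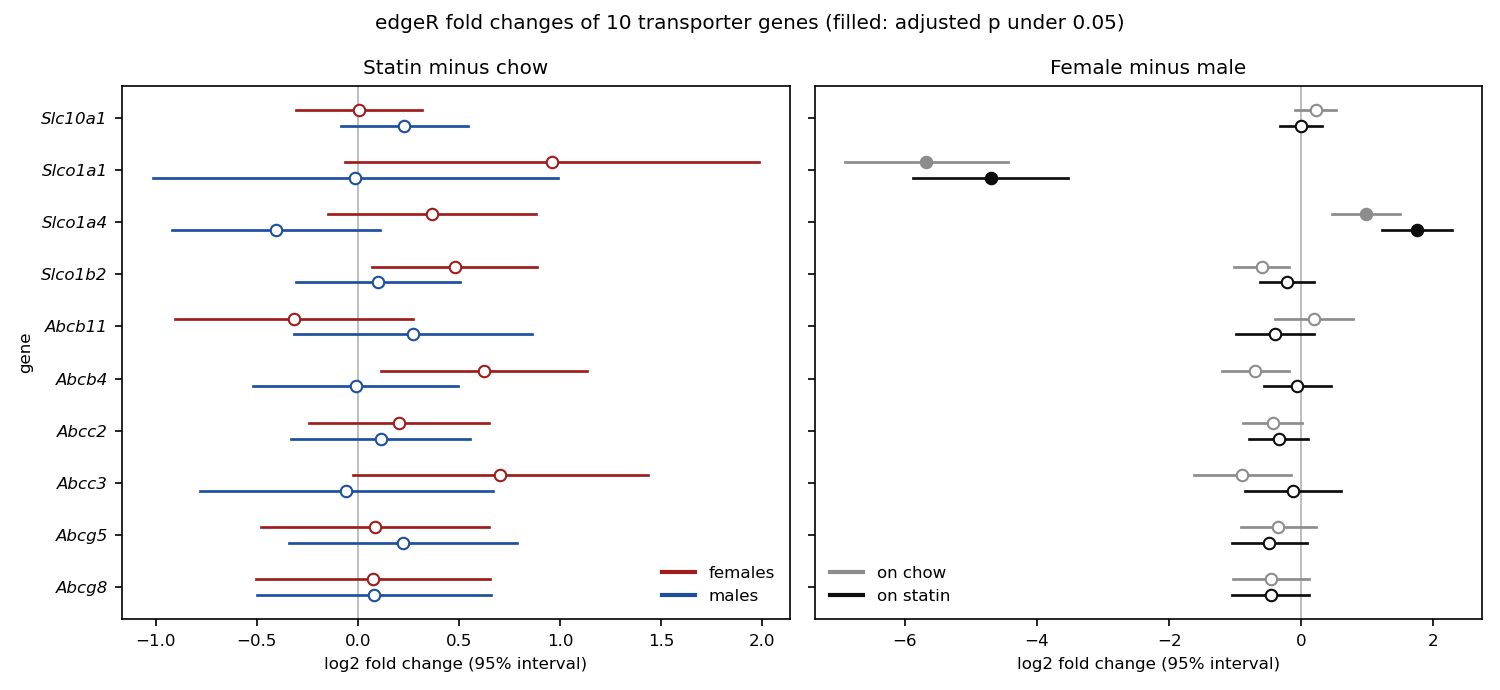
Fold changes of the transporter genes on the log2 scale with 95% intervals from edgeR: statin minus chow in females and males on the left, female minus male on chow and on statin on the right, with filled points at an adjusted p under 0.05. No point is filled on the left, and on the right only Slco1a1, near -5.67 and -4.70, and Slco1a4, at 0.98 and 1.75, are filled.

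The livers that stood apart did so across the transcriptome. Once group means were removed, 1 axis held 57.8% of the remaining variance over 7641 genes, and the weights of genes on it went with exonic length (Spearman's rho 0.45, taken over genes rather than over independent replicates). Female statin liver 2 and male statin liver 1 were at its upper end, with scores of 23.2 and 23.3, and female statin liver 1 and male statin liver 3 at the lower end, with -22.3 and -16.5. The chow livers stayed between -9.47 and 10.8. Each member's deviation from its group mean was set against this axis over the 12 livers, as a description with no test, since the members share these libraries with the genes that define the axis.

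Abcc2 followed the axis most closely, with a Pearson correlation of 0.95. Abcc3 had 0.86, Abcb11 0.77 and Abcb4 0.73. The uptake carriers did not share this: Slc10a1 had 0.02, Slco1a1 -0.23, Slco1a4 0.32 and Slco1b2 -0.54, and the sterol pump genes had -0.30 (Abcg5) and 0.33 (Abcg8). Exonic lengths were 5146 to 9383 bases for the 4 genes with high values, 6414 for Slco1a4 and 5276 for Slco1a1, and 2199 to 4929 for Slc10a1, Abcg5, Abcg8 and Slco1b2.

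When each liver's slope of expression on exonic length was added to the fit, an alternative chosen after seeing the data, 6 members were called between the sexes on chow in place of 2, and the share of all genes called there was 26.7% in place of 10.4%. Slco1b2 (-0.64), Abcb4 (-0.63), Abcc2 (-0.34) and Abcc3 (-0.76) were then lower in females at adjusted p of 0.014, 0.020, 0.024 and 0.016. No member was called for statin in that fit, beside 3.52% of all genes in females and 0% in males, with the lowest adjusted p in females, for Abcb4, at 0.055. What set the axis was not tested.

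**Figure D4:**
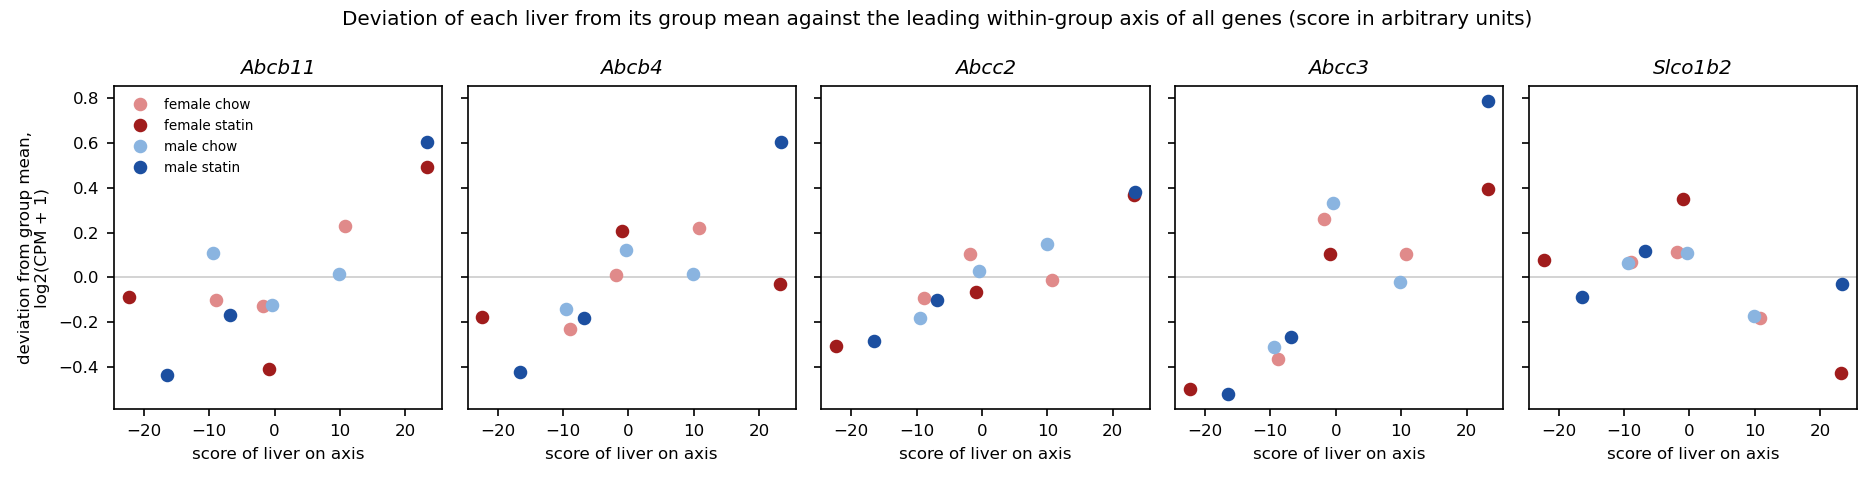
Deviation of each liver from its group mean, in log2(CPM + 1), for the 4 transporters that followed the leading within-group axis and for Slco1b2, against the score of the liver on that axis (arbitrary units), one point per liver colored by group. Abcb11, Abcb4, Abcc2 and Abcc3 are higher toward the right, where 2 livers score 23.2 and 23.3, and Slco1b2 is below its group mean in both of these livers, clearly in the female and slightly in the male.

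Abcg5 and Abcg8 encode partner subunits of one sterol pump and lie head to head on chromosome 17. In GRCm38, Abcg5 spans chr17:84658234-84683011 on the minus strand and Abcg8 spans chr17:84676302-84700333 on the plus strand. By annotation the genes overlap over 6710 bases, of which 82 are exonic in both, where reads of the pair can be told apart only by strand, and the strand setting of the counting is not given in the sources used here. RefSeq also lists a further start site for Abcg8, and the one opposite Abcg5 was chosen here. Between it and the start site of Abcg5 lie 109 bases. The stretch that both promoter windows share is shown, on the plus strand of chr17:84682962-84683170, because both of these start sites lie in it. Capitals mark the bases between the start sites.
Abcg5 and Abcg8: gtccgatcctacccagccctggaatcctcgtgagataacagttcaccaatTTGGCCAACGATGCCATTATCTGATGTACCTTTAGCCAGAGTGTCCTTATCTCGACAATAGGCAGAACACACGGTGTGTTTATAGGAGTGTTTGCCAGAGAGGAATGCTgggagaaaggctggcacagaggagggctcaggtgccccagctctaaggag

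Abcg5 stood at 72.7, 85.5 and 109 CPM in females on chow, 131, 98.0 and 54.6 in females on statin, 123, 124 and 92.8 in males on chow and 135, 129.9 and 132 in males on statin. Abcg8 stood at 103, 99.4 and 128 CPM in females on chow, 132, 153 and 63.6 in females on statin, 151, 160.0 and 144 in males on chow and 202, 133 and 145 in males on statin. Female statin liver 3 was the lowest of all 12 for both genes. The fold changes on statin were 0.09 for Abcg5 (SE 0.26, 95% interval -0.48 to 0.65) and 0.08 for Abcg8 (SE 0.27, 95% interval -0.50 to 0.66) in females, and 0.22 (SE 0.26, 95% interval -0.34 to 0.79) and 0.08 (SE 0.27, 95% interval -0.50 to 0.66) in males. Without male chow liver 3 the male value of Abcg5 was 0.10.

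The level per base of Abcg8 was between 0.729 and 1.13 times that of Abcg5 over the 12 livers, with a median of 0.865. Deviations from the group means of the pair went together, with a Pearson r of 0.79 (exact permutation of livers within groups, two-sided p = 0.058 over 1296 permutations, n = 12) and a Spearman rho of 0.75 (exact permutation p = 0.012). These p-values, from 2 coefficients for 1 relation, fall on either side of 0.05 and were not adjusted. Without the 2 livers farthest from the median of Abcg5 (female statin 3 and female statin 1) r was 0.52, and without female statin 3 alone it was 0.29, so the size of the correlation depended on these livers.

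**Figure D5:**
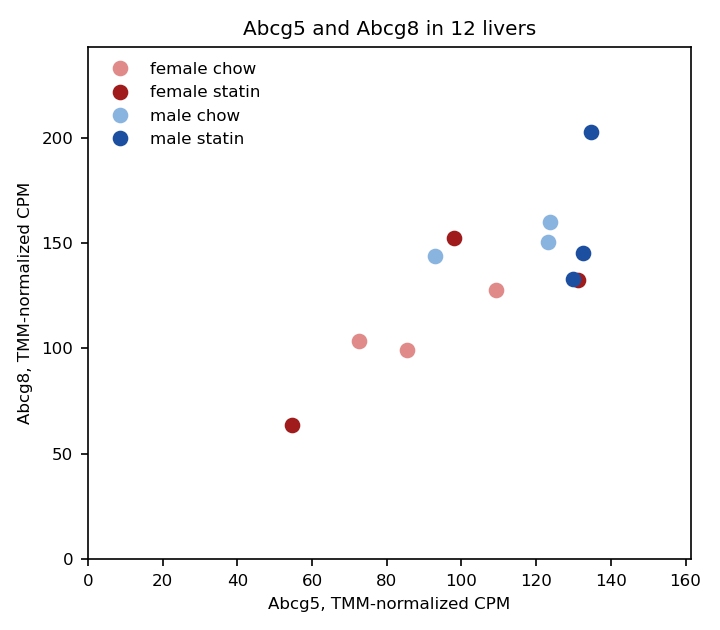
Abcg8 against Abcg5 in the 12 livers, both as TMM-normalized CPM from 0, one point per liver colored by group. Female statin liver 3 stands alone at the lower left (54.6 and 63.6 CPM), and the other livers are spread with no single order of the pair.

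Other transporters and the receptors that control them were read from lists of 40 genes, of which 35 passed the filter. None was called for statin in either sex by edgeR. An unadjusted p under 0.05 was found for 6 of the 35 in females and none in males, beside 10.5% and 1.96% of all genes. Among the sinusoidal exporters Abcc4, which exports conjugates to the blood, was higher in females by 1.75 (SE 0.28, adjusted p = 0.0024) on chow and 1.87 (SE 0.29, adjusted p = 0.0020) on statin, at means of 8.28 and 2.46 CPM on chow. Among the canalicular exporters Abcb1a was higher in females on statin by 1.70 (SE 0.38, adjusted p = 0.020), and Abcg2, a drug and urate exporter, was lower in females by -0.89 (SE 0.15, adjusted p = 0.0029) and -1.15 (SE 0.15, adjusted p = 0.00058). Scarb1, the receptor that takes up cholesterol from high-density lipoprotein, was lower in females on chow by -0.60 (SE 0.13, adjusted p = 0.015). In all, 1 of the 35 was higher and 3 were lower in females on chow, and 2 were higher and 2 lower on statin, where 10.4% and 6.28% of all genes were called.

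Of the 13 regulators, Nr0b2, the repressor through which the bile acid receptor acts on many genes, was lower in females by -1.05 (SE 0.31, adjusted p = 0.049) on chow and by -2.11 (SE 0.32, adjusted p = 0.0017) on statin. The bile acid receptor gene itself, Nr1h4, differed by -0.54 (SE 0.16, adjusted p = 0.050, just above the threshold) on chow. Nr1i3, a drug-sensing receptor, had means of 128 CPM (SD 24.2, n = 3) in females on chow and 296 (SD 147, n = 3) on statin, without overlap of the groups, and a fold change of 1.21 (SE 0.32, adjusted p = 0.18).

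The other list genes without overlap and at an unadjusted p under 0.05 in females on statin were Ahr (0.72, SE 0.24, adjusted p = 0.30), Atp7b (0.57, SE 0.19, adjusted p = 0.27), Slc47a1 (0.42, SE 0.14, adjusted p = 0.29), Nr1h2 (-0.34, SE 0.10, adjusted p = 0.22) and Abcb1b. Abcb1b was below 1 CPM in every female liver, with means of 0.884 on chow and 0.636 on statin, and passed the filter through the male livers. Of 7 target genes of SREBP2, the factor that responds to cholesterol depletion, none was called for statin by edgeR in either sex and none had an unadjusted p under 0.05. Sqle and Insig1 of these were higher in females on chow, by 1.68 and 0.80 (adjusted p = 0.030 and 0.041).

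The genes most like each member over the 12 livers, among those with a mean of at least 10 CPM, are given as descriptions with no test. For Slco1a1 they were Serpina1e (Pearson r 0.98) and Ces3b (0.98), and for Slco1a4 Tmem176a (0.95) and Cyp2a22 (0.95), values that include the differences between the group means. For Slco1b2 they were Ugt3a2 (0.96) and Pgrmc1 (0.96). For Abcb11, Abcb4, Abcc2 and Abcc3 the closest genes were Rsf1 (0.95), Manba (0.96), Fam91a1 (0.98) and Lamp1 (0.96). The lowest values were for Slc10a1 with Angptl4 (0.80) and for Abcg5 with Dedd2 (0.87), and Abcg8 had Dtnbp1 (0.92). Serpina1e was also 1 of the 5 hepatocyte markers, with a mean of 103 CPM (SD 76.7, n = 3) in females and 2415 (SD 333, n = 3) in males on chow.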

How the data were processed

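RNA-seq was performed on 12 livers, 3 in each of 4 groups taken from the labels. Libraries were poly(A)-selected, strand-specific and read from both ends. The submitters' processing notes list STAR 2.4.1a, HTSeq, edgeR 3.28.1 and GRCm38. The strand setting of the counting is not given in the sources used here. The authors deposited CPM values, scaled to each library's total, for 48526 genes, and a table of counts for 11968 genes above 1 CPM in at least 6 livers. That table is named as TMM-normalized but holds whole counts: reads recovered from the deposited CPM were whole for 100.0% of values (tolerance 0.01) and equal to its counts at every value. Symbols were matched by Ensembl ID for 99.8% and 99.0% of the genes of these tables. The totals of 46066381 to 60419223 counts per liver exceed the mean read depth stated in the study's methods, and the difference is unresolved.

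Counts were fitted with edgeR 4.0.16 (R 4.3.3; TMM, quasi-likelihood, all 4 groups in one fit, no covariate, common dispersion 0.0380, prior degrees of freedom 4.14). Standard errors were obtained as |log2 fold change| over the root of F, and intervals use the t distribution. Which mice shared a cage and which livers were extracted together is not given in the sources used here, so p-values measure the spread between these livers. The methods were tested on simulated data. Alternatives were DESeq2 1.42.0, limma 3.58.1 on log2(CPM + 1) and with pseudocount 0.1, DESeq2's size factors, library size alone, leaving out the 10 most abundant genes, no filter, a filter of 10 CPM, each pair of groups alone, the replicate number as a block, and each liver left out. Positions are from GENCODE vM21 and promoter windows from RefSeq. Each member's window was the one nearest its GENCODE start, except for Abcg8, whose window opposite Abcg5 was chosen. Python 3.11.15, numpy 2.4.6, pandas 2.3.3, scipy 1.17.1 and matplotlib 3.10.9 were used.

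The members, lists and tests were chosen with earlier results of these data known. Other transporters and regulators are named when called in any comparison, or when statin and chow livers did not overlap at an unadjusted p under 0.05. Cell type markers are given as counts and sums; 7 SREBP2 targets and the 2 genes most correlated with each member were also read, and not every one is named. One further gene of the SREBP2 list is not reported here. Replicate numbers are only names: same-numbered livers are different mice, and the deviations from group means of 18 such pairs had a mean correlation of -0.109, against 0.058 over 36 pairs with different numbers. No 2 livers agreed within sampling noise (lowest chi-square 44.5 per degree of freedom). No value column was left out.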

Additional observations from a re-analysis of the deposited data

How the results depend on the processing

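No member was called for statin in either sex, or for the difference in response, under any of the 23 alternatives (the 2 groups alone give no value for the difference in response), and Slco1a1 and Slco1a4 kept their calls between the sexes on statin in all. Of 1140 member fold changes recomputed, 1067 kept their direction and side of the threshold, 18 passed it newly, 5 lost it (Slco1a4 on chow, 1 chow liver fewer each time) and 50 reversed, from a size of at most 0.27. The members called between the sexes on chow were 5 with DESeq2, beside 16.3% of all genes, and 6 with the 2 groups alone, beside 2151 genes. With the length slope, chosen after seeing the data, they were 6, beside 26.7% of all genes. When livers were left out they were 1 to 4, beside 635 to 1586 genes. They were 3 with library size alone (Abcb4 added) and 4 without a filter, where the counts over all genes are not reported here. Leaving out 1 liver moved none of the 4 called fold changes of members by more than 1.5 times on the log2 scale, but moved or turned 37 of the 46 that were not called. The smaller groups limit power, and the cause of the other shifts was not tested.

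The replicate block changed no member's call. With the replicate block 5 genes were called for statin in females in place of 12. Between the sexes it called 901 genes on chow in place of 1250 and 570 on statin in place of 751.

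Over all genes, calls in females, in males, for the difference in response, and between the sexes on chow and on statin were 270, 4, 130, 1946 and 1284 with DESeq2. With the length slope they were 421 in females, 53 for the response, 3199 on chow and 2359 on statin; without a filter 148 in females and 103 for the response; with a stricter filter 2 in females, 771 on chow and 356 on statin; with the 2 groups alone 0 in females, 2151 on chow and 292 on statin. Leaving out 1 liver gave 0 to 75 in females, 0 to 14 for the response, 635 to 1586 on chow and 378 to 743 on statin. Of the 40 listed transporters and regulators, DESeq2 called 8 on chow and 2 for statin in females; the length slope 14 on chow, 10 on statin and 4 for statin in females; no filter 9 on chow, 1 for statin in females and 1 for the response; the stricter filter 2 and 2 between the sexes; the 2 groups alone 9 on chow; and leaving out 1 liver 2 to 7 on chow and 0 to 1 for statin in females.

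The median of the members ranged from -0.10 to 0.17 for statin in males and from -0.44 to -0.0902 between the sexes on statin when 1 liver was left out, the lowest and highest sizes each set by a statin liver (male statin 1 at -0.10 and -0.0902). The Abcg5 and Abcg8 correlation was 0.82 (exact permutation p = 0.026) with library size alone and 0.29 to 0.85 with 1 liver left out.

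The largest reversed values were 0.38 (Abcc3) and 0.31 (Abcb4) between the sexes on statin without male statin liver 1 and 0.30 (Abcg8, response) without female statin liver 3. With DESeq2 and with its size factors in edgeR, Abcb4 was 0.00285 and Slco1a1 0.0014 for statin in males. With the length slope, Abcb4 and Abcc3 between the sexes on statin were 0.0846 and 0.0727 and the response of Abcg8 differed by 0.0065, and without the 10 most abundant genes by 0.0032. Slc10a1 for statin in females was -0.0252 with library size alone, -0.0034 without a filter and -0.0014 with the 2 groups alone, and 0.0340 between the sexes on statin with the stricter filter; Slco1a1 in males was 0.00096 with library size alone. Abcg8 for statin in females was -0.0090 with limma and -0.0099 with pseudocount 0.1. With 1 liver left out, statin in males ranged from -0.0942 to 0.47 for Abcb11, -0.38 to 0.19 for Abcb4, -0.10 to 0.25 for Abcc2, -0.57 to 0.18 for Abcc3, -0.12 to 0.20 for Abcg8 and -0.0945 to 0.0451 for Slco1a1. Statin in females ranged from -0.0068 to 0.35 for Abcc2, -0.21 to 0.38 for Abcg5, -0.17 to 0.39 for Abcg8 and -0.10 to 0.12 for Slc10a1. The response difference ranged from -0.13 to 0.31 for Abcc2, -0.44 to 0.15 for Abcg5 and -0.25 to 0.30 for Abcg8, and the sexes on statin from -0.26 to 0.31 for Abcb4, -0.37 to 0.38 for Abcc3 and -0.0557 to 0.0657 for Slc10a1.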
